A study of Mus musculus with 40 samples.

Results

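The expression of 38 genes of the extracellular matrix and of hepatic stellate cells was followed in the livers of 40 mice exposed to pioglitazone (Pio), a high-fat diet (HFD), or both. The genes were chosen by name, from 40594 genes present in both count tables. They comprise 6 fibrillar collagen genes, 9 basement membrane genes, 9 genes of the interstitial matrix, 7 genes of matrix remodelling and 7 stellate cell markers. All 38 genes were found, and 36 passed the filter on low counts, of 12942 genes that passed in all. The inhibitor of matrix metalloproteinases Timp1 and the collagen crosslinking enzyme Lox did not pass.

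Collagen in the liver is laid down mainly by stellate cells, which lie between the sinusoidal endothelium and the hepatocytes and store vitamin A as retinyl esters while they are quiescent. On injury they lose these stores, take on features of myofibroblasts and secrete fibrillar collagen, fibronectin and inhibitors of matrix degradation, with TGFβ as a main driver. Pio is an agonist of PPARγ, a nuclear receptor that is expressed in quiescent stellate cells as well as in hepatocytes, and whose activation is known to oppose stellate cell activation.

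All mice were males of 5 months, and each of the 8 groups held 5. Wildtype (WT) mice were C57BL6/J animals from a vendor, and the liver-specific PPARγ knockout (KO) mice carried PPARγ-loxP alleles together with an Alb-Cre transgene, whose albumin promoter drives deletion in hepatocytes. Stellate cells of the KO mice therefore keep the gene, and no group carried loxP alleles without Cre. For 3 months from an age of 2 months the mice ate a control (low-fat) diet, the same diet with 0.01% Pio by weight ("Pio"), a diet with 60% of its calories from fat ("HFD"), or the latter with 0.01% Pio ("HFD-Pio"). Effects of Pio and of diet were tested within each genotype, because the genotypes came in separate tables and a difference between tables cannot be told apart from one between genotypes.

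Values are CPM, the reads of a gene relative to the size of the library, in each mouse after scaling by the trimmed mean of M-values (TMM), and fold changes are on the log2 scale. Genes were tested with edgeR's quasi-likelihood test and called at a Benjamini-Hochberg adjusted p of at most 0.05 over all 12942 genes. Libraries held 15788242 to 49857017 counts in WT and 21542958 to 28334251 in KO mice, and the median over the mice of a member's count ranged from 3 reads for Timp1 to 70198.5 for Fn1. Counts of Pparg were 5.79 to 14.2 CPM in WT and 3.01 to 9.9 CPM in KO mice, which does not measure the deletion, because the gene total also covers exons outside it and cells other than hepatocytes.

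Single livers stood apart in these genes. Mouse 832 of the WT control group had the highest value of its group in 31 of the 36 tested members, against 33.1% of all tested genes, and 25 members lay over 1 log2 unit above the group median. Its summed CPM over the 6 fibrillar collagen genes was 393.9, against 70.8 to 92.0 in the other 4 mice of the group. Its summed stellate markers were 312, against 119.1 to 151.3, its cholangiocyte markers 187, against 76.6 to 88.7, and its hepatocyte markers 73050, against 82700 to 123400. The summed markers of portal fibroblasts and mesothelium (142, against 90.9 to 194.9) and of smooth muscle (50.7, against 30.4 to 52.2) lay within the range of the others. Gas6, highest in mouse 833, made 118.2 CPM of the group's mean portal sum of 134.7. Mouse 832 was the highest in Eln (8.75 CPM), Fbln2 (7.41), Mfap4 (6.22), Cd34 (3.91), Msln, Wt1 and Gpm6a, but not in Thy1 and Upk3b. Among the smooth muscle genes it was the highest in Myh11 and Smtn only.

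Mouse 13 of the KO Pio group differed over the whole transcriptome. Its median Spearman correlation with the other KO mice was 0.773, and 28.1% of all tested genes lay over 1 log2 unit above the group median. It had the highest value of its group in 19 of 36 members, against 44% of all tested genes, and the lowest in 11. Its summed hepatocyte markers were 34240 CPM, against 97650 to 129500 in its group. Its summed sinusoidal endothelial markers were 999.7, against 512 to 614.5, with Eng (361.1 CPM), Stab1 (216.3), Bmp2 (203.9) and Cdh5 (66.9) the highest of the group. The other endothelial genes listed, among them Stab2, Clec4g, Fcgr2b, Lyve1 and Kdr, were highest in other mice. Its summed Kupffer cell markers were 947.8, against 483.6 to 655, with C1qa (256.8), C1qb (140.3), C1qc (315.3) and Csf1r (100.6) the highest. Clec4f, Cd5l, Vsig4, Timd4, Adgre1, Marco and Cd68 were highest in other mice. Its summed markers of portal fibroblasts and mesothelium were 362, against 54.5 to 67.8, of which Gas6 alone made 337.7. Mouse 13 was also the highest in Eln, Fbln2, Upk3b and Wt1, but other mice were in Thy1, Mfap4, Cd34, Msln and Gpm6a. Its summed smooth muscle markers were 55.8, against 17.4 to 33.2, of which Smtn alone made 45.8. The other smooth muscle genes, such as Myh11, Tagln and Myl9, were highest in other mice. Its summed lymphocyte and leukocyte markers were 5.99, against 19.3 to 42.8. In the WT HFD group mouse 829 had a summed level of the basement membrane genes of 2900 CPM, against 1373 to 1622, and of hepatocyte markers of 96950, against 111100 to 147100. In the KO Pio group mouse 12 followed mouse 13 in the sum of fibrillar collagens, with 220.7 CPM against 301.8 in mouse 13 and 83.7 to 93.8 in the remaining 3. Results that rest on mouse 832 or mouse 13 are given with and without it, and what part the other cell types have in these results was not tested. In bulk liver RNA, moreover, fewer cells of a type and less RNA per cell cannot be told apart.

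**Figure D1:**
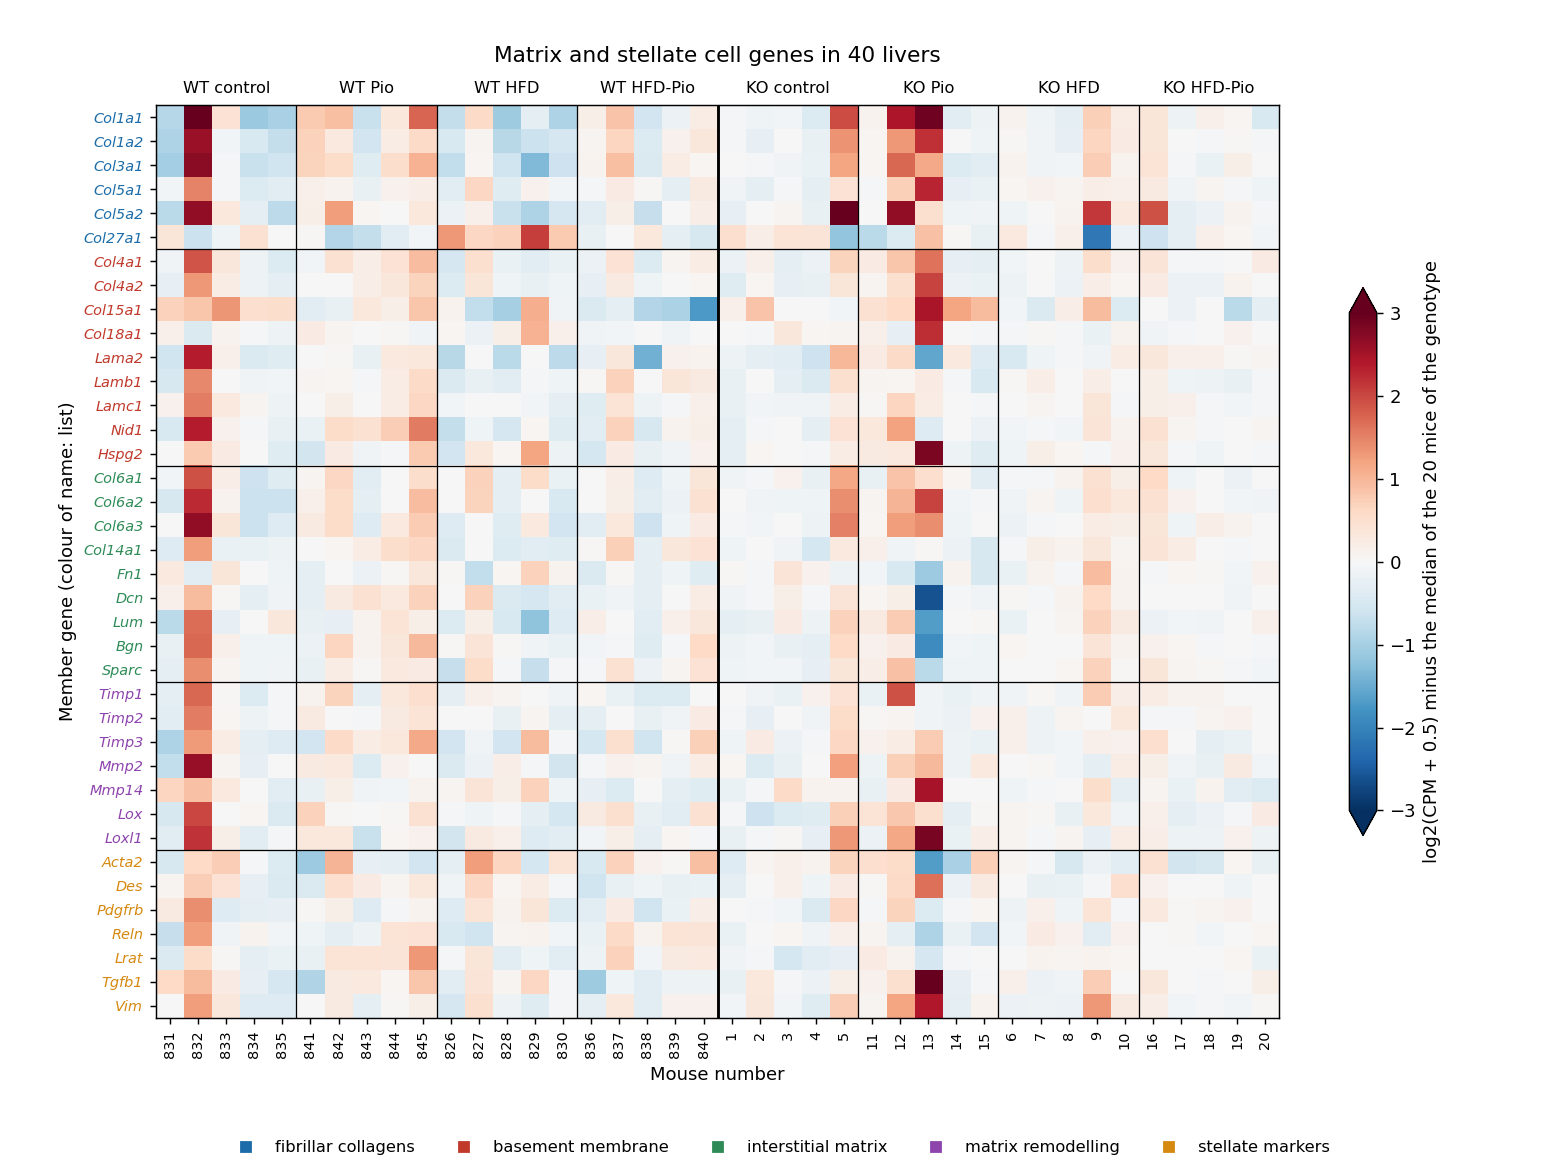
Level of each member gene (1 line per gene, grouped by list) in each of the 40 mice (columns, in 8 groups of 5), as log2(CPM + 0.5) minus the median of the 20 mice of the genotype. Mouse 832 of the WT control group is high in most genes, while mouse 13 of the KO Pio group is the highest of its group in 19 of the 36 tested genes and the lowest in 11.

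The plot of deviations by mouse shows that the mice which stood out did so in many members together. In the KO control group, mouse 5 was highest in 29 of 36 members, against 23.9% of all tested genes. Mouse 16 was highest in 25 members (23.3% of all genes) in the KO HFD-Pio group, mouse 9 in 23 (33.3%) in the KO HFD group, mouse 845 in 22 (30.4%) in the WT Pio group, mouse 837 in 21 (18.6%) in the WT HFD-Pio group and mouse 827 in 20 (19.7%) in the WT HFD group.

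Levels between genes were compared as CPM per kb of exon. Fn1, which encodes fibronectin and is also secreted by hepatocytes, was the most abundant member, with a median of 251 over the 20 WT and 239 over the 20 KO mice. Col18a1, the source of endostatin and also made by hepatocytes, followed at 180 and 178. The small proteoglycan genes Bgn (22.7 and 19.2) and Dcn (16 and 21) and Sparc (12.8 and 13.1) came next. The genes most often read as fibrosis markers were far lower, with Col1a1 at 1.72 and 0.921, Col3a1 at 2.12 and 2.52 and the smooth muscle actin gene Acta2 at 2.19 and 1.65. The retinol esterifying enzyme gene Lrat (2.65 and 4.33) and the stellate cell marker Reln (2.44 and 3.98) lay in the same range, and the lowest members were Lox (0.0636 and 0.0916), Lama2 (0.0734 and 0.119) and Timp1 (0.182 and 0.0876). Defining stellate cell markers were thus present in these livers.

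**Figure D2:**
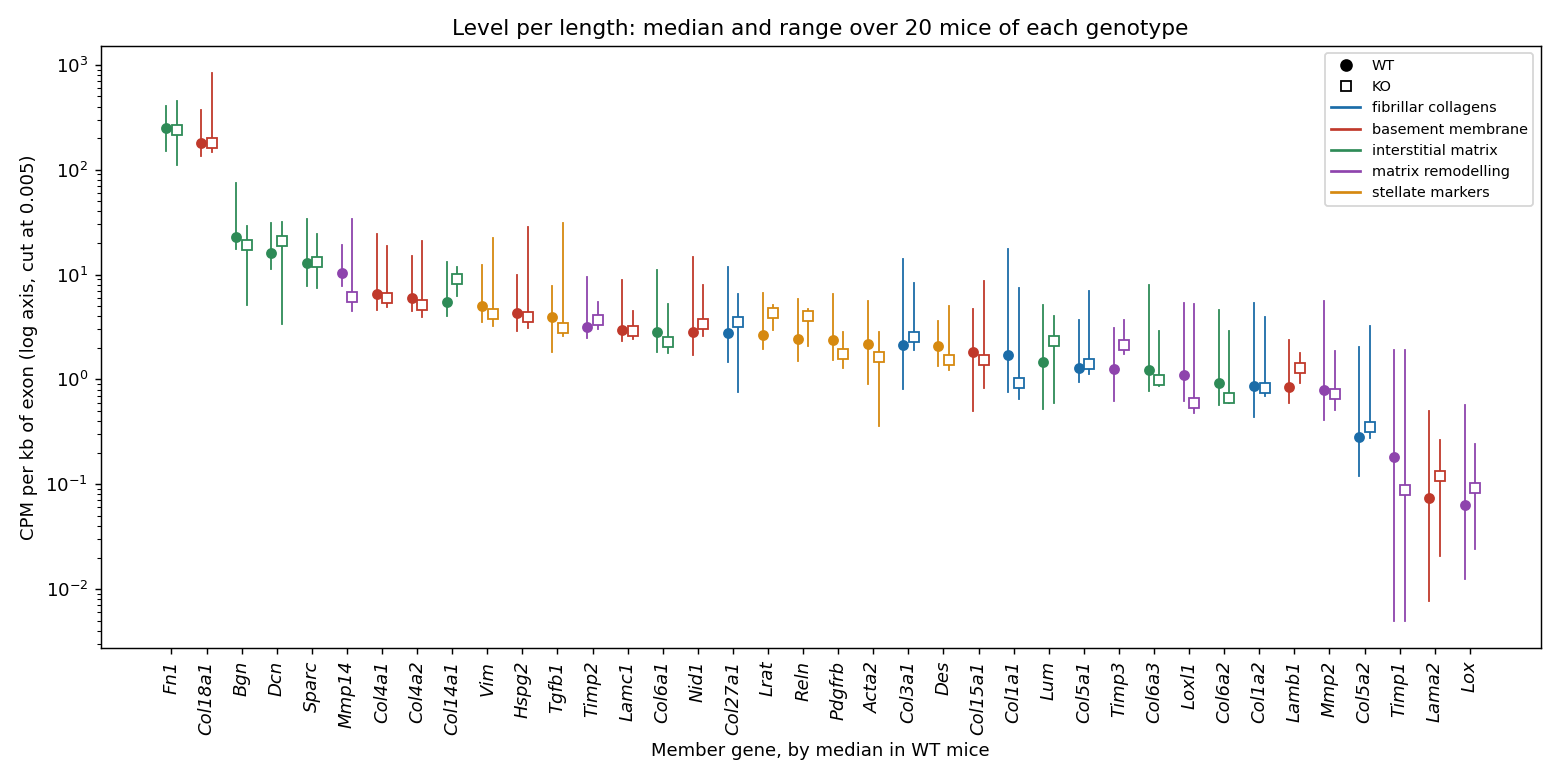
Level of each member gene in CPM per kb of exon (log axis), in WT and KO mice, ordered by level. Fn1 and Col18a1 lie far above the rest, and Lox, Lama2 and Timp1 are at the bottom.

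The first question was what Pio did to these genes in WT mice on control diet. 0 of the 36 members were called by edgeR and 0 by DESeq2, while limma with sample weights called 5. Limma also called far more of all genes than edgeR did, as given in the section on processing, so the 5 members do not stand out. Of all 12942 genes edgeR called 3.91%, and 2 members (5.56%) had an unadjusted p under 0.05, against 17.9% of all genes. The median log2 fold change was -0.24 over the members and -0.022 over all genes, with 5 of 36 members above 0, against 47.5% of all genes. That direction rested on mouse 832. Without it the median was 0.35, against 0.021 over all genes, and 31 of 36 members lay above 0, against 52.5% of all genes. An unadjusted p under 0.05 was then found for 11 members (30.6%), against 16.6% of all genes.

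Among the fibrillar collagens, which form the banded fibrils of scar tissue, the change of sign covered 5 of the 6 genes. Their fold changes ranged from -0.55 to -0.26 with all mice, for a median of -0.47. Without mouse 832 the median was 0.91, and Col27a1, at -0.53, was the one gene below 0. Col1a1 (chromosome 11, 94936224 to 94953042, GRCm38), one of the chains of type I collagen, read 5.94, 116, 15.2, 4.93 and 5.5 CPM in the WT control mice 831 to 835, and 19.7, 21.2, 6.91, 14.1 and 38.6 CPM in the WT Pio mice 841 to 845. One control mouse was thus above all Pio mice, and 3 of the other 4 were below all of them. The fold change was -0.55 (SE 0.67, edgeR adjusted p = 0.737), and 1.39 without mouse 832.

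Col3a1 (chromosome 1, 45311538 to 45349706), the gene of type III collagen, read 9.96, 138, 20.1, 12.8 and 13.6 CPM on control diet and 33.4, 30.6, 16.0, 30.3 and 43.3 CPM with Pio. The pattern was that of Col1a1, with a single very high control and 3 controls below every Pio mouse. Its fold change was -0.34 (edgeR adjusted p = 0.784) with all mice, and 1.15 without mouse 832. Without the 4 mice of lowest sample weight in limma (832, 13, 829 of WT HFD and 9 of KO HFD), it was 1.13 and was called (edgeR adjusted p = 0.0287).

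Col1a2, the partner chain of type I collagen, read 5.4, 66.8, 10.2, 7.65 and 6.36 CPM on control diet and 17.5, 13.2, 6.99, 12.7 and 16.1 CPM with Pio. Mmp2, a gelatinase secreted by activated stellate cells, read 1.39, 18.9, 2.84, 2.19 and 2.64 CPM and 3.33, 3.38, 1.88, 2.97 and 2.72 CPM. In both genes mouse 832 was again the highest of the 10, and the remaining controls and the Pio mice overlapped. The fold change of Col1a2 was -0.53 (edgeR adjusted p = 0.63) with mouse 832 and 0.87 without it, and that of Mmp2 was -0.97 (edgeR adjusted p = 0.22) and 0.36. Timp1 was at most 0.181 CPM in the other 4 controls and 1.68 CPM in mouse 832.

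In the other lists the medians moved the same way when mouse 832 was left out, from -0.15 to 0.39 for basement membrane, from -0.21 to 0.45 for the interstitial matrix, from -0.39 to 0.34 for remodelling and from -0.15 to 0.16 for the stellate markers.

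The stellate marker Lrat (chromosome 3, 82892579 to 82903973) had the highest fold change of the 5 members above 0 with all mice. It read 10.4, 21.0, 14.5, 11.6 and 12.3 CPM on control diet and 12.1, 18.9, 19.0, 18.7 and 35.5 CPM with Pio. Mouse 845 was the highest, and the groups overlapped through mice 832 and 841. Its fold change was 0.58 (SE 0.20, edgeR adjusted p = 0.102). Without mouse 832 it was 0.79 and was called (edgeR adjusted p = 0.0241, with 3.18% of all genes called), and without mouse 845 it was 0.30 (edgeR adjusted p = 0.515).

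Without the 4 mice of low weight, 6 members (16.7%) were called higher with Pio, against 21.1% of all genes called in either direction. Beside Col3a1 and Lrat these were the basement membrane linker Nid1 (log2 fold change 0.88, edgeR adjusted p = 0.0199), the fibril-associated collagen Col14a1 (0.54, adjusted p = 0.0173), Bgn (0.51, adjusted p = 0.0439) and the metalloproteinase inhibitor Timp3 (0.76, adjusted p = 0.0498). The share of members was below that of all genes.

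**Figure D3:**
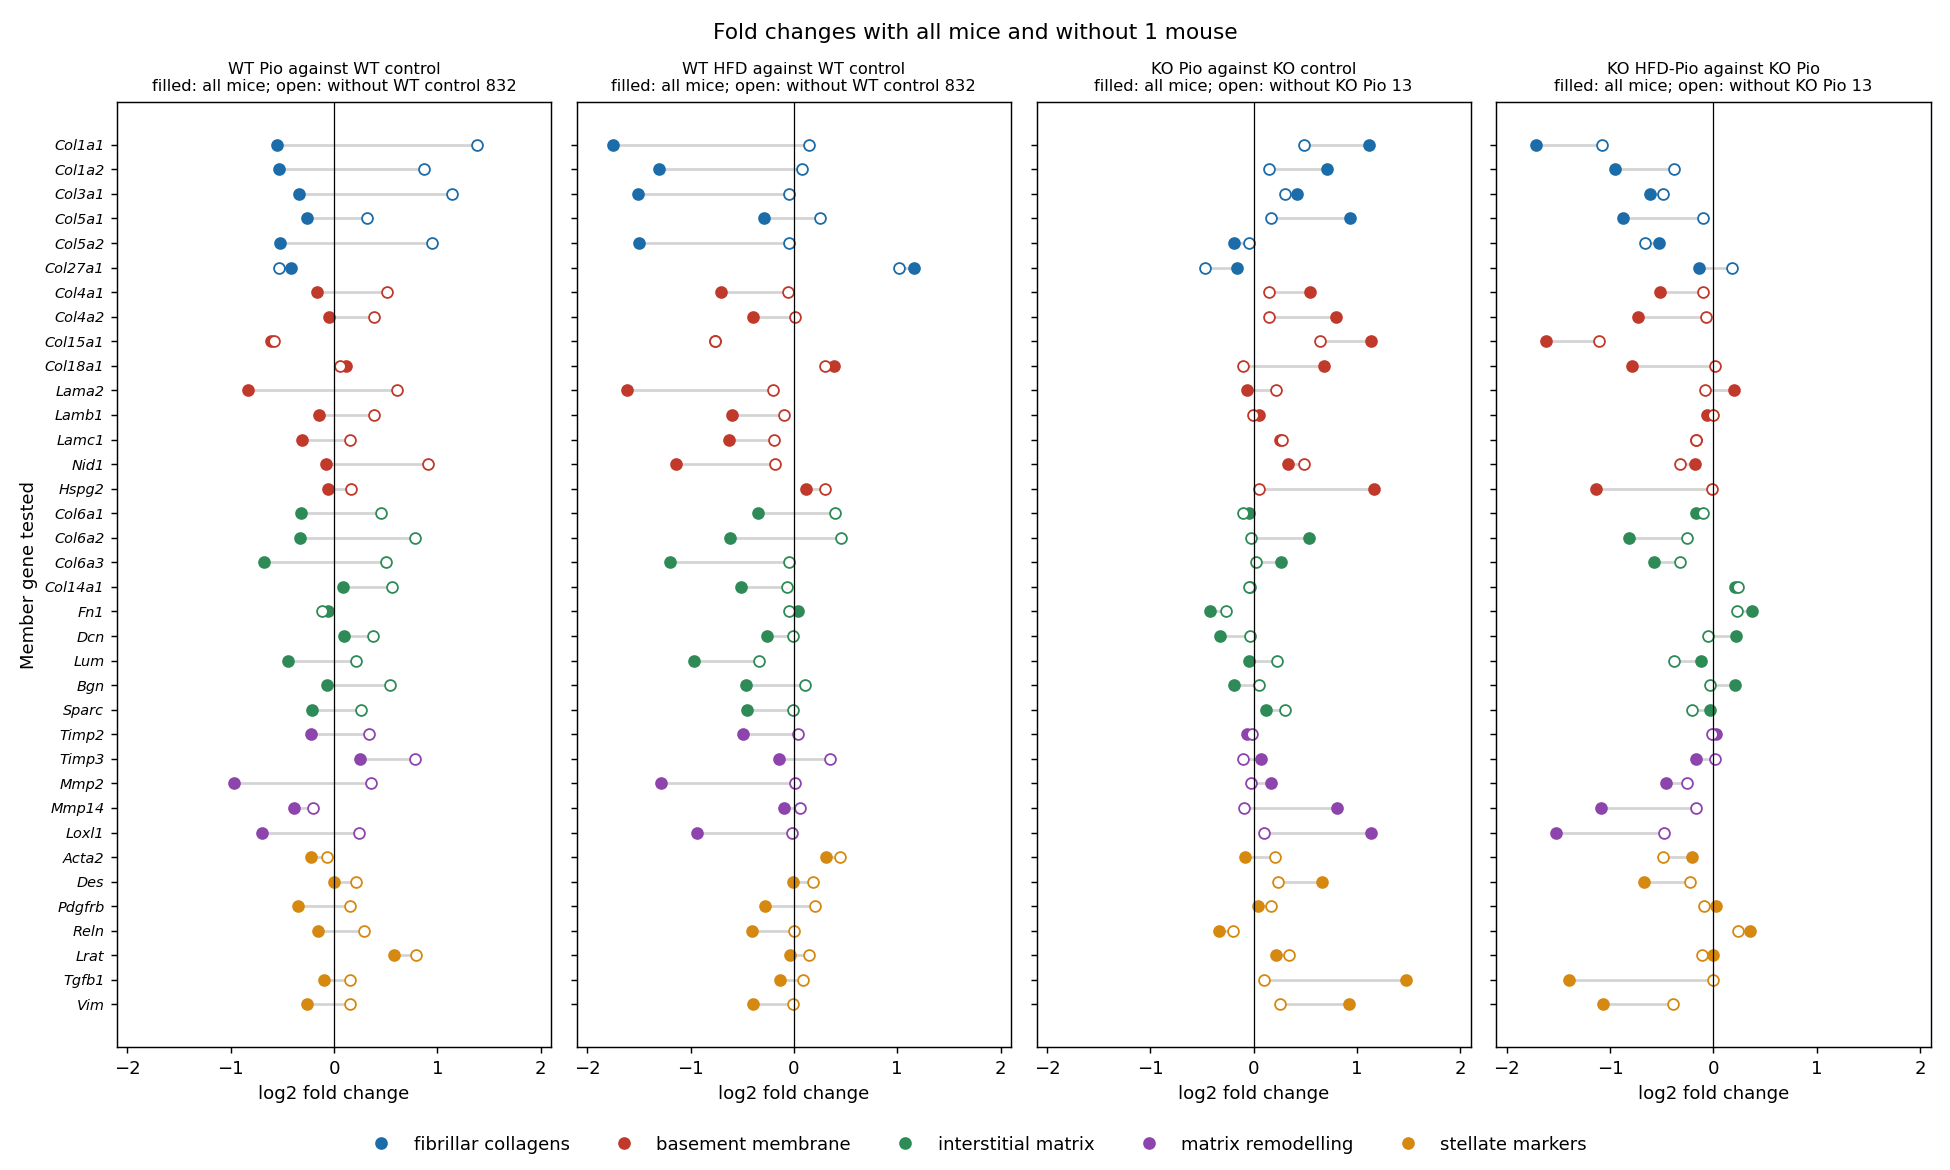
Log2 fold change of each tested member with all mice (filled) and without the mouse named above each panel (open), coloured by list. In the panel of WT Pio against WT control, the fibrillar collagens other than Col27a1 cross 0 when mouse 832 is left out, and for KO mice most values draw closer to 0 without mouse 13.

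The plot of fold changes with and without these mice shows both shifts side by side for every tested member.

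In WT mice on HFD, Pio lowered 1 of the 36 members, Col27a1, whose product is a fibrillar collagen best known from cartilage. Of all genes 1.08% were called, with 0.479% lower, and 4 members (11.1%) had an unadjusted p under 0.05, against 15.6% of all genes. The other 5 fibrillar collagens had fold changes above 0 and the list a median of 0.46, but none of those 5 was called. The medians were 0.12 for basement membrane, 0.010 for the interstitial matrix, 0.072 for remodelling and -0.10 for the stellate markers, and 24 of 36 members lay above 0, against 47.9% of all genes.

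Col27a1 (chromosome 4, 63214004 to 63334991) read 89.3, 55.3, 57.8, 153 and 62.1 CPM in the WT HFD mice 826 to 830, and 30.5, 36.3, 44.9, 29.4 and 25.7 CPM in the WT HFD-Pio mice 836 to 840. Every HFD mouse was above every HFD-Pio mouse, with mouse 829 the highest. Its fold change was -1.32 (SE 0.35, edgeR adjusted p = 0.0491), and the two-sided exact permutation test of 5 mice against 5 gave p = 0.00794, the smallest that it can give. Of all genes, 3.89% were separated in this direction. The call was at the threshold and was lost when any of 30 of the 40 mice was left out in turn, while the fold change stayed between -1.43 and -0.99. Without the 4 mice of low weight it was -0.98 (edgeR adjusted p = 0.011).

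Col27a1 was also the member with the highest fold change for HFD in WT mice without Pio, where the WT control mice read 46.0, 22.8, 32.6, 49.5 and 35.3 CPM. All 5 HFD mice were above these controls, a separation found for 1.65% of all genes in this direction. HFD gave a fold change of 1.16 (SE 0.34, edgeR adjusted p = 0.083). Without Pio in the HFD arm the gene was thus at its highest among the WT groups, and the HFD-Pio mice overlapped with the controls. Both comparisons share the WT HFD mice, so that they are not independent.

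In KO mice Col27a1 read 65.4, 53.1, 61.8, 59.98 and 20.0 CPM on control diet and 56.1, 44.9, 51.3, 9.96 and 40.6 CPM on HFD. It was called in none of the 4 comparisons of KO mice. In 3 of the mice that were highest in most members (832 of WT control, 5 of KO control and 9 of KO HFD) it was at the lowest value of the group, unlike Col1a1 and Col3a1, which were at their highest of the group there.

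The laminin chain gene Lamb1 and the intermediate filament gene Des, a stellate and smooth muscle marker, were also separated between WT HFD and HFD-Pio mice. Lamb1 was at 6.05 to 7.95 CPM on HFD and 8.33 to 13.8 CPM on HFD-Pio, with a fold change of 0.56 (SE 0.24, edgeR adjusted p = 0.239). Des was at 7.29 to 12.3 CPM on HFD and 4.99 to 7.12 CPM on HFD-Pio, with a fold change of -0.47 (SE 0.26, adjusted p = 0.377). Such separation was seen for 3.22% of all genes in the higher and 3.89% in the lower direction. Lamb1 was named after its values were seen.

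Without the 4 mice of low weight, 4 members (11.1%) were called in this comparison, against 9.14% of all genes. Col27a1 fell, while Lamb1 (0.62, edgeR adjusted p = 0.0183), Col14a1 (0.59, adjusted p = 0.0221) and Reln (0.53, adjusted p = 0.038) rose.

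**Figure D4:**
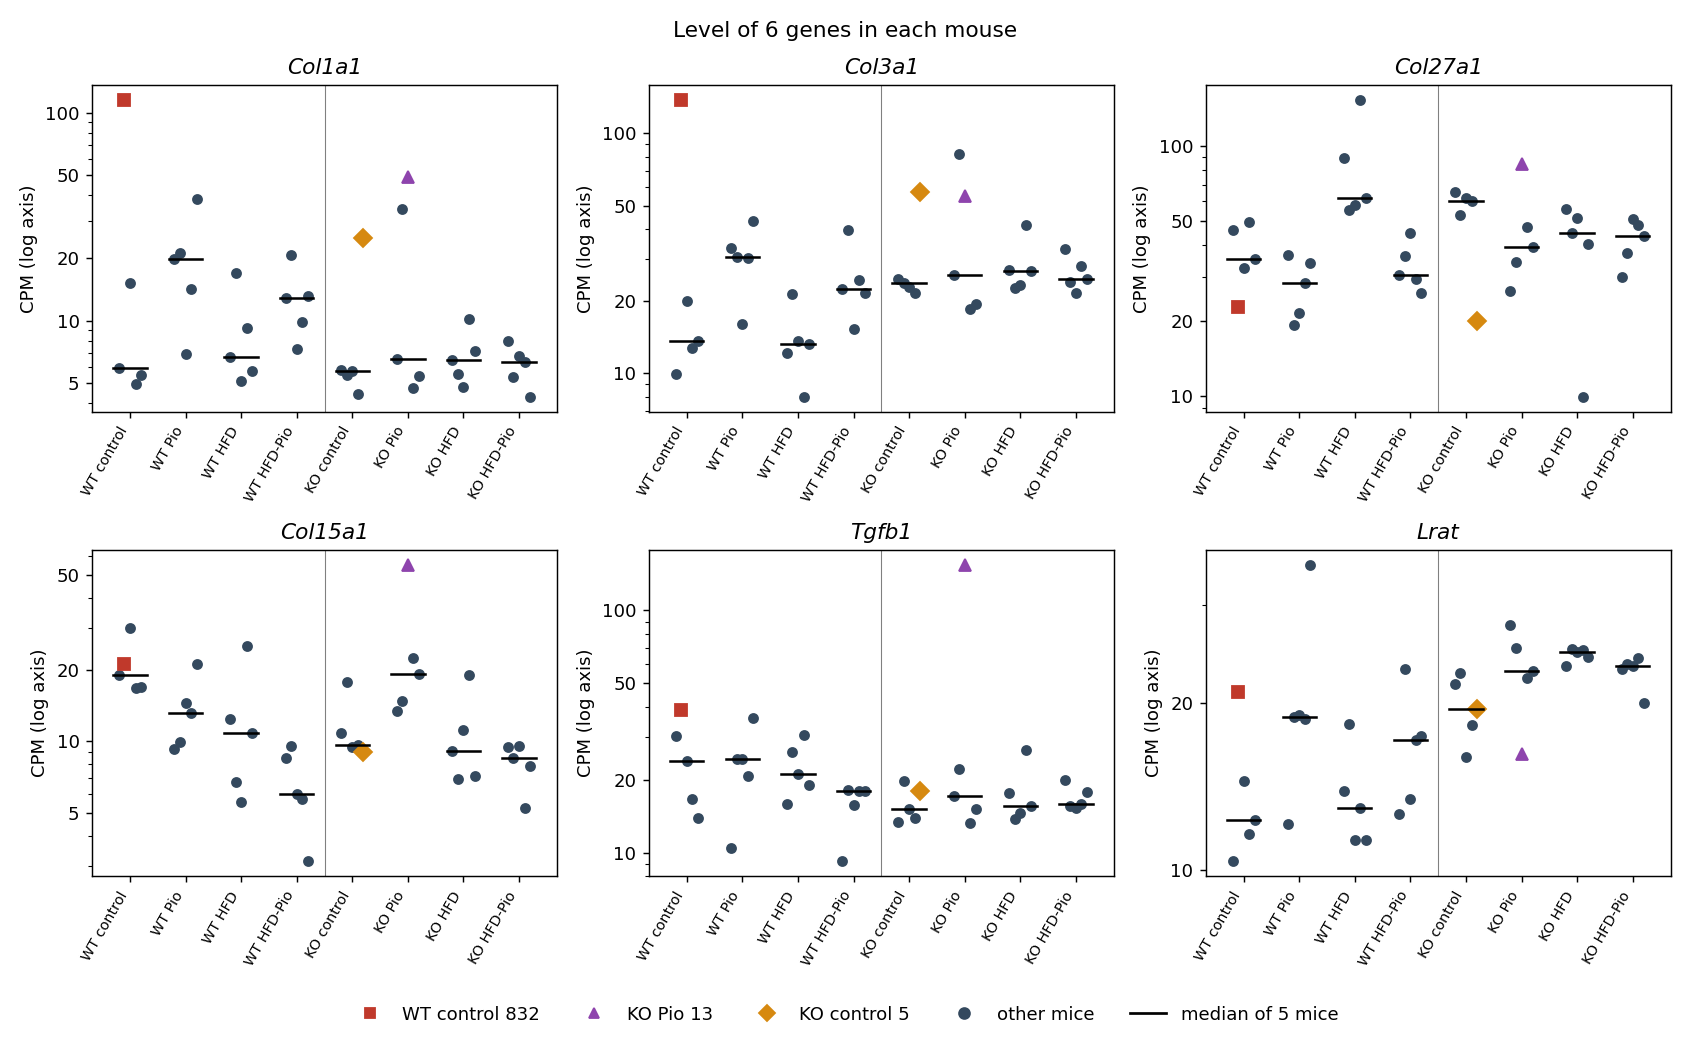
CPM (log axis) of 6 member genes in each mouse of the 8 groups, with 1 point per mouse and a line at the median of the 5 mice. Col27a1 is separated between the WT HFD and WT HFD-Pio groups, Col1a1 and Col3a1 have 1 very high WT control mouse (832), and Tgfb1 and Col15a1 have 1 very high KO Pio mouse (13).

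The 6 genes drawn by group (Col1a1, Col3a1, Col27a1, Col15a1, Tgfb1 and Lrat) are those on which most of the comparisons turned.

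HFD in WT mice without Pio left 0 members called by edgeR, against 1.31% of all genes. DESeq2 called 2 and limma 0, and the shares of all genes called by these tools are not given here. With all mice most members had fold changes below 0, with 5 of 36 above 0 against 50.3% of all genes, a median of -0.46 against 0.0020 over all genes, and an unadjusted p under 0.05 in 15 members (41.7%) against 13.2% of all genes. The fibrillar collagens had a median of -1.40, with Col1a1 at -1.75 (edgeR adjusted p = 0.225) and Col3a1 at -1.51 (adjusted p = 0.127). Mouse 832 sits in the control arm of this comparison too. Without it the median of the members was 0.011, against 0.016 over all genes, and 20 of 36 lay above 0, against 52.8% of all genes. An unadjusted p under 0.05 was then found for 1 member (2.78%), against 8.38% of all genes, and edgeR called 0 members and 0.719% of all genes.

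The values of single mice show the same. Col1a1 in WT HFD mice was at 6.65, 17.0, 5.1, 9.17 and 5.7 CPM, which overlaps with the 4 controls other than mouse 832. Without mouse 832 the medians by list were 0.11 for fibrillar collagens, -0.097 for basement membrane, -0.012 for the interstitial matrix, 0.036 for remodelling and 0.15 for stellate markers, against -1.40, -0.62, -0.47, -0.49 and -0.13 with it.

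Col15a1 (chromosome 4, 47208161 to 47313167), a collagen that links basement membranes to the matrix beneath them, had values below 0 in all 4 WT comparisons. It read 19.0, 21.1, 30.0, 16.7 and 16.9 CPM in WT control mice, 9.29, 9.89, 14.5, 13.1 and 21.1 CPM with Pio, 12.4, 6.77, 5.57, 25.1 and 10.8 CPM on HFD, and 8.51, 9.55, 6.04, 5.73 and 3.14 CPM on HFD-Pio. The control group was the highest and the HFD-Pio group the lowest of the WT groups. With all mice none of the 4 fold changes was called by edgeR, with -0.61 for Pio on control diet (adjusted p = 0.393), -0.87 for Pio on HFD (adjusted p = 0.239, and -0.43 without mouse 829), -0.77 for HFD (adjusted p = 0.352) and -1.03 for HFD among Pio-treated mice (adjusted p = 0.163). Without the 4 mice of low weight, the fold changes for HFD without Pio (-1.20, adjusted p = 0.0198) and with Pio (-1.01, adjusted p = 0.0116) were called, among 3.64% and 16.8% of all genes. The exons of Col15a1 overlap with those of Gm12426, and the strand setting of the counting is not given in the sources used here.

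HFD among Pio-treated WT mice called 0 members with edgeR, against 1.22% of all genes. DESeq2 called 0 and limma 3, and the shares of all genes called by these tools are not given here. In edgeR 1 member (2.78%) had an unadjusted p under 0.05, against 14.2% of all genes. The medians of the lists lay between -0.25 and -0.095.

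In KO mice on control diet Pio called 2 members higher, Col15a1 and Tgfb1, while 9.01% of all genes were called and 7.75% were called higher. An unadjusted p under 0.05 was found for 10 members (27.8%) and for 27.6% of all genes. The medians were 0.56 for fibrillar collagens, 0.55 for basement membrane, -0.042 for the interstitial matrix, 0.17 for remodelling and 0.22 for stellate markers. Without KO control mouse 5 those of the fibrillar collagens and of remodelling were 1.12 and 0.64.

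Tgfb1 (chromosome 7, 25687002 to 25705077), the fibrogenic growth factor, read 13.4, 19.7, 15.1, 13.9 and 17.9 CPM in KO control mice 1 to 5 and 17.1, 22.1, 155, 13.2 and 15.1 CPM in KO Pio mice 11 to 15. Apart from mouse 13, the Pio mice lay about where the controls did. The fold change was 1.47 (SE 0.44, edgeR adjusted p = 0.0341), the exact permutation test gave p = 0.373 (two-sided), and the fold change without mouse 13 was 0.099.

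Col15a1 read 10.8, 17.7, 9.49, 9.7 and 8.99 CPM in KO control mice and 13.5, 14.7, 55.1, 22.3 and 19.2 CPM with Pio. Mouse 13 was the highest, but the other 4 Pio mice also lay above 4 of the 5 controls. The fold change was 1.14 (SE 0.36, edgeR adjusted p = 0.0439, exact permutation p = 0.0238, two-sided), and 0.64 without mouse 13.

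Without mouse 13, 0 of the 36 members were called by edgeR, against 0.51% of all genes, and 0 had an unadjusted p under 0.05, against 10.6% of all genes. The medians were then 0.16, 0.15, -0.021, -0.027 and 0.20 in the order of lists above. The values of mouse 13 were far from the rest in several genes named after their values were seen. Hspg2, which encodes the basement membrane proteoglycan perlecan, was 403 CPM in mouse 13 and 44.0 to 69.1 CPM in the other 4 Pio mice. Col18a1 was 5826 CPM against 1046 to 1382 CPM, and Dcn was 19.7 CPM against 113.5 to 139 CPM. Of the 9 basement membrane genes, 6 were at the highest value of the group in mouse 13 and 2 (Lama2 and Nid1) at the lowest, and of the 9 interstitial matrix genes 2 were at the highest and 5 at the lowest.

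In KO mice on HFD, Pio called 0 members with edgeR, and 0 had an unadjusted p under 0.05, while 0.0155% and 1.04% of all genes did. DESeq2 and limma also called 0 members. Fold changes ran from -0.40 for Col15a1 to 0.30 for Lama2. Effects of HFD in KO mice without Pio were likewise called in 0 members, against 0.185% of all genes, with 0 members at an unadjusted p under 0.05 and 4.6% of all genes. The same 2 other tools called 0 members here as well.

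Lrat, 1 of the 36 members, was separated between the groups of that second comparison, although it was not called. It read 21.6, 22.6, 16.0, 18.3 and 19.5 CPM in KO control and 23.3, 25.0, 24.7, 25.0 and 24.2 CPM in KO HFD mice. How many other members were separated is not given here. Every HFD mouse was above every control, and the HFD mice lay close together. The fold change was 0.32 (SE 0.20, edgeR adjusted p = 1), and 1.33% of all genes were separated in this direction.

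HFD among Pio-treated KO mice called 2 members lower, Col15a1 and Mmp14, against 4.96% of all genes called and 4.54% called lower, with an unadjusted p under 0.05 in 11 members (30.6%) against 24% of all genes. The lower arm of this comparison is set against the KO Pio group with mouse 13, which the comparison of Pio on control diet shares. Without mouse 13, 0 members and 0.0927% of all genes were called, and the median of the members went from -0.33 to -0.11.

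Mmp14 (chromosome 14, 54431612 to 54445364), a membrane-bound collagenase that activates Mmp2, read 31.1, 43.1, 202, 36.6 and 36.0 CPM in KO Pio and 38.1, 31.3, 39.2, 28.5 and 26.9 CPM in KO HFD-Pio mice. Leaving mouse 13 aside, the groups overlapped over most of their range. Its fold change was -1.09 (SE 0.32, edgeR adjusted p = 0.0459) and -0.17 without mouse 13.

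Col15a1 read 9.46, 8.48, 9.55, 5.27 and 7.88 CPM in KO HFD-Pio mice, and all of them were below all 5 KO Pio mice, mouse 13 or not. The fold change was -1.62 (SE 0.37, edgeR adjusted p = 0.0307) with an exact permutation p of 0.00794 (two-sided), and -1.11 without mouse 13, where it was not called. Separation in this direction was found for 1.2% of all genes.

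The effect of Pio on Col15a1 on control diet was tested between genotypes as an interaction, which cancels a constant difference between the tables. The KO effect exceeded the WT effect by 1.75 (SE 0.51, edgeR adjusted p = 0.0324, with 7.87% of all genes called and 5.38% in this direction), and Col15a1 was the only member called there. Within WT mice 4 of 5 Pio values were below all controls, and within KO mice 4 of 5 controls were below all Pio values. The difference was 1.24 without mouse 13 and not called, and 1.22 without the 4 mice of low weight, where it was called (adjusted p = 0.043, among 9.68% of all genes). The other 5 interactions, of Pio with diet in each genotype, of Pio with genotype on HFD and of HFD with genotype with and without Pio, called 0 members with edgeR, DESeq2 or limma, while edgeR called 0.0773%, 0%, 0.0927%, 0.0155% and 0.0618% of all genes in that order. An unadjusted p under 0.05 was found in that order for 2, 6, 2, 2 and 7 of the 36 members (5.56%, 16.7%, 5.56%, 5.56% and 19.4%), against 12.1%, 12.1%, 5.93%, 19.3% and 9.43% of all genes.

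With all mice, the remaining anchors of the set were called in no comparison. Acta2, the usual marker of activated stellate cells and of smooth muscle, was at 1.99 to 12.2 CPM over the WT and 0.781 to 6.19 CPM over the KO mice, with all groups overlapping. Pdgfrb, the PDGF receptor of stellate cells and pericytes, was at 8.39 to 35.3 CPM in WT and 7.07 to 15.5 CPM in KO mice. Vim, an intermediate filament gene of mesenchymal cells, reached 57.9 CPM in mouse 832 and 107 CPM in mouse 13, with group medians between 17.8 and 26.2 CPM. Reln was at 35.5 to 78.8 CPM in WT control and Pio mice, except for 138 CPM in mouse 832, and at 75.8 to 112.5 CPM in KO mice without Pio. These are unlike sets of groups. Over all groups the genotypes overlapped, with 1.49 to 5.82 CPM per kb of exon in WT and 2.08 to 4.74 in KO mice. Fn1 had group medians of 2028 to 3038 CPM, with 5285 CPM in mouse 9 of the KO HFD group. Col4a1, a chain of the type IV collagen network of basement membranes, had group medians of 39.96 to 65.7 CPM and reached 182 CPM in mouse 832.

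Around these members, 66 further genes of collagen processing, TGFβ signalling, stellate cells and matrix degradation were listed, and 57 of them were tested. In WT mice on control diet Pio called P4ha2 and Thbs1 lower and Tgfbr2 higher, which is 5.26% of the 57 against 3.91% of all genes. HFD in WT mice called Tgfbr2 and Thbs1 lower without Pio (3.51%, against 1.31% of all genes), and Tgfbr2 lower with it (1.75%, against 1.22%). P4ha2, a subunit of the enzyme that hydroxylates collagen prolines, was at 8.64 ± 0.795 CPM (SD, n = 5) on control diet and 4.91 ± 0.953 CPM with Pio, a fold change of -0.81 (edgeR adjusted p = 0.0151). The groups did not overlap, with 7.8 to 9.52 CPM against 4.04 to 6.44 CPM, and 3.03% of all genes were separated in this direction.

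Tgfbr2, the receptor that binds TGFβ, was at 27.1 ± 9.34 CPM (SD, n = 5) in WT control, 45.4 ± 16.2 CPM in WT Pio, 14.6 ± 3.35 CPM in WT HFD and 22.5 ± 5.47 CPM in WT HFD-Pio mice. It rose with Pio on control diet by 0.75 (edgeR adjusted p = 0.0236). It fell with HFD, both without Pio (-0.89, adjusted p = 0.0147, and -0.73, adjusted p = 0.0903, without mouse 832) and with it (-1.01, adjusted p = 0.00408). The WT control and WT HFD mice did not overlap, as was the case for 1.41% of all genes in this direction. The rise with Pio was not particular to WT mice. In KO mice Tgfbr2 was at 24.1 to 33.2 CPM on control diet and 35.7 to 44.1 CPM with Pio, without overlap (1.61% of all genes in this direction), but was not called. KO mice on HFD were at 25.4 to 32.4 CPM without Pio and 23.9 to 32.9 CPM with it. Thbs1, an activator of latent TGFβ, reached 48.6 CPM in mouse 832 against a WT control median of 6.79 CPM. Its fold changes of -2.19 with Pio (adjusted p = 0.0432) and -2.44 with HFD (adjusted p = 0.0498) were -0.64 and -0.92 without mouse 832 and not called.

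In KO mice on control diet Pio called 5 of the 57 genes higher (Crtap, Eng, Smad7, Bambi and Lhx2) and 3 lower (P4ha1, P4hb and Tgfb3), 14% in all against 9.01% of all genes, of which 7.75% were higher and 1.26% lower. HFD among Pio-treated KO mice called 5 lower (Crtap, P3h1, Smad7, Bambi and Lhx2), 8.77% against 4.96% of all genes. None of these was called with mouse 13 left out, but the fold changes of the 3 lower genes stayed near their size. For Pio they went from -1.11 to -0.87 for P4ha1, a subunit of the collagen prolyl hydroxylase, from -0.47 to -0.46 for its partner P4hb and from -0.96 to -0.93 for the growth factor Tgfb3. Those of the genes called higher went from 1.251 to 0.31 for Crtap, 0.87 to 0.14 for Eng, 1.71 to 0.66 for Smad7, 1.37 to 0.69 for Bambi and 1.29 to 0.024 for Lhx2. Without the 4 mice of low weight, P4ha1 (-0.89, edgeR adjusted p = 0.00125), P4hb (-0.49, adjusted p = 0.0198) and Bambi (0.66, adjusted p = 0.0474) were called. For HFD with Pio, the 5 fold changes were -1.54 to -0.72 with all mice and -0.46 to -0.079 without mouse 13.

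The other 3 two-group comparisons, Pio on HFD in either genotype and HFD in KO mice without Pio, called 0 of the 57 with edgeR, and an unadjusted p under 0.05 was found for 4, 0 and 3 of them (7.02%, 0% and 5.26%), against 15.6%, 1.04% and 4.6% of all genes.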

How the data were processed

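The authors selected poly-A RNA from whole liver, aligned reads to GRCm38 (Ensembl release 76) with STAR 2.0.4b and deposited whole-number counts of uniquely aligned, unambiguous reads per gene (Subread featureCounts 1.4.5), without normalization, in 1 table per genotype. Whether counting used strand is not given in the sources used here, and 12 members overlap with exons of another gene. All count columns matched a mouse by its label (0 left over). Repeated lines of a gene (574 in WT, 598 in KO, of which 0 differed) were kept once, 355 rRNA genes were left out, and the filter kept genes that reached 1 CPM in 5 or more of the 40 mice.

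Counts were fitted in R 4.3.3 with edgeR 4.0.16 (TMM, robust quasi-likelihood fit, a mean for each of 8 groups, common dispersion 0.085) and tested in 14 contrasts, with Benjamini-Hochberg adjustment over 12942 genes. The script was tested on simulated data. Limma 3.58.1 with sample weights (the authors' method) and DESeq2 1.42.0 were alternatives, with size factors of DESeq2, no filter, each genotype alone and each mouse left out. Exact permutation tests compared 5 mice with 5. Depth limits the lowest genes, and p-values measure the spread between mice, of which the labels give no litter or batch.

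The genes named were the members called in any of the 8 two-group comparisons and 14 anchors (Col1a1, Col1a2, Col3a1, Col4a1, Fn1, Timp1, Mmp2, Acta2, Des, Pdgfrb, Reln, Lrat, Tgfb1 and Vim), and others are marked or named where an alternative called them. Members and lists were chosen with earlier results of these data known. Of the listed symbols, 1 was not found. Coordinates are from GENCODE M21. Binding data were not analysed here.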

Additional observations from a re-analysis of the deposited data

Results flagged for a closer look

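In 168 groups of 5 mice, over 21 named genes, 37 single values lay far from the other 4 of their group by Dixon's test at its 95% level. That level marks about 1 group in 20 for independent normal values, a rate that cannot be set against the 37 values here. Some of the genes were named after their values were seen, some lost their call without mouse 13, and genes of 1 mouse vary together. WT control mouse 832 was high in 10 genes, with 116 CPM for Col1a1, 66.8 for Col1a2, 138 for Col3a1, 182 for Col4a1, 23.5 for Lamb1, 91.6 for Col14a1, 1.68 for Timp1, 18.9 for Mmp2, 35.3 for Pdgfrb and 138 (138.2) for Reln. KO Pio mouse 13 was high in 6, with 55.1 CPM for Col15a1, 5826 for Col18a1, 403 for Hspg2, 202 for Mmp14, 19.0 for Des and 155 for Tgfb1. KO control mouse 5 was high in Col1a1 (24.9 CPM), Col1a2 (26.8), Col3a1 (56.9) and Mmp2 (6.34), and low in Col27a1 (20.0). KO HFD mouse 9, whose summed lymphocyte and leukocyte markers were 304.8 CPM against 18.7 to 40.2 in the other 4, most of it from the neutrophil genes S100a9 (161.7) and S100a8 (94.3) and from Ptprc (43.2), was high in Col3a1 (41.4 CPM), Fn1 (5285) and Vim (49.9).

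The remaining values were each in 1 or 2 genes of a mouse. They were Col1a2 at 13.5 CPM and Hspg2 at 71.1 CPM in KO HFD-Pio mouse 16, Col4a1 at 68.3 CPM and Col14a1 at 38.3 CPM in WT HFD mouse 827, and Des at 4.99 CPM and Tgfb1 at 9.2 CPM in WT HFD-Pio mouse 836, both low. High single values were Col18a1 at 2608 CPM in WT HFD mouse 829 and at 1577 CPM in KO control mouse 3, Col15a1 at 17.7 CPM in KO control mouse 2, Timp1 at 1.69 CPM in KO Pio mouse 12, Acta2 at 10.2 CPM in WT Pio mouse 842 and Des at 8.38 CPM in KO HFD mouse 10. Lrat was low at 20.0 (20.02) CPM in KO HFD-Pio mouse 20.

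The effect of Pio on Col15a1 on control diet differed between genotypes, by 1.75 on the log2 scale (edgeR interaction, adjusted p = 0.0324), as described above. In this comparison 2.78% of the members were called, against 7.87% of all genes. The call was lost in 7 of the 40 fits without 1 mouse, among them the fit without mouse 13, where the difference was 1.24.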

How the results depend on the processing

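No paired analysis was possible because mice of different groups share no replicate number. Counts of members called follow, with the count with all mice in edgeR in parentheses. For Pio on control diet in WT mice (0), limma gave 5, leaving out the 4 mice of low weight 6, and leaving out mice 832 and 13 together 5. For Pio in WT mice on HFD (1), DESeq2 size factors and no filter gave 0, limma 2, and leaving out the 4 mice or both mice 4. For Pio in KO mice on control diet (2), no filter, limma, KO alone and both ways of leaving out mice gave 0. For HFD in WT mice without Pio (0), DESeq2 gave 2, and WT alone and without the 4 mice 1. For HFD in WT mice with Pio (0), limma gave 3, and leaving out the 4 mice or both 1. For HFD in KO mice with Pio (2), no filter and limma gave 1, DESeq2 6, and KO alone, without the 4 or without both 0. For Pio by genotype on control diet (1), no filter and leaving out both gave 0. Leaving out each mouse in turn gave 0 to 1, 0 to 2, 0 to 10, 0 to 3, 0 to 1, 0 to 10 and 0 to 5 in the same order, and 0 in the other 7 comparisons. Over all genes these fits called 212 to 2011, 39 to 1504, 66 to 2315 and 58 to 849 in the first of these comparisons. In the rest they called 48 to 1123, 2 to 2027 and 545 to 1977. Without the 4 mice, 21.1%, 9.14%, 2.09%, 3.64%, 16.8%, 0.533% and 9.68% of all genes were called in the same order. Such shares are not given for every alternative, so counts of members alone cannot be read as results about them. The alternatives without named mice were chosen after seeing the data. The cause of the other changes was not tested.

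Fold changes that took the other sign did so mainly without mouse 832 or with limma's weights. In the comparison of Pio with control diet among WT mice, Col1a1 was 1.03 with limma, 1.38 without the 4 mice, 1.38 without both and 1.39 without mouse 832. Col1a2 was 0.48, 0.86, 0.87 and 0.87, Col3a1 0.80, 1.13, 1.14 and 1.15, and Mmp2 0.12, 0.35, 0.36 and 0.36 in that order. For HFD in WT mice without Pio, Col1a1 was 0.22, 0.16, 0.17 and 0.15 and Col1a2 0.0022, 0.14, 0.092 and 0.078. Col3a1 was 0.11 without the 4 mice, and Mmp2 0.025 without both and 0.013 without mouse 832. For Pio in KO mice on control diet, Mmp14 was -0.084 with limma, -0.12 without the 4 mice, -0.12 without both and -0.095 without mouse 13, Col18a1 was -0.060, -0.13, -0.13 and -0.11 in that order, and Hspg2 -0.025 with limma. Tgfb1 was 0.058 with limma for HFD in KO mice with Pio.

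Over the 40 fits without 1 mouse, the values of these genes ranged for Pio in WT mice from -0.94 to 1.39 for Col1a1, -0.79 to 0.87 for Col1a2, -0.61 to 1.15 for Col3a1 and -1.23 to 0.36 for Mmp2. For HFD in WT mice without Pio the lowest were -2.18, -1.58 and -1.57 for Col1a1, Col1a2 and Mmp2, and for Pio in KO mice Mmp14 reached 1.01. Calls of Col15a1 were lost in 5 of these 40 fits for Pio in KO mice, in 6 for HFD with Pio and in 7 for the interaction, those of Tgfb1 in 6 and of Mmp14 in 14. The medians by list moved by more than the spread between replicates in 24 of the alternatives and not in 256, and in 9 of the fits without 1 mouse and not in 1591. Without mouse 13, the 1 member (2.78%) called among WT mice was Lrat for the Pio effect under control diet, against 15.5% of all genes. It was Col27a1 for HFD without Pio, against 6.56% of all genes, and Col15a1 for HFD with Pio, against 8.68%. These shares of members were below those of all genes. Without mouse 832 the calls in KO mice were 5 members (13.9%) for Pio on control diet, against 11.9% of all genes. For HFD with Pio they were 6 members (16.7%), against 7.05% of all genes. Over all genes, Pio in WT mice on control diet called 506 genes, limma 3095, and edgeR without the 4 mice 2727, and Pio in WT mice on HFD called 140, 1087 and 1183. The lowest genes are limited by depth, with a median of 3 reads for Timp1.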

Other observations

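Promoters of 27 of the 38 members, as given by RefSeq for GRCm38.p6 from shortly before to shortly after the start of the gene, were searched on both strands for the DR1 element bound by PPARγ with RXR and for its single site AGGTCA, which the element contains. DR1 was found in 0 of 27, against 0.0481% of the 27025 genes with a promoter, and the single site in 0 of 27, against 18.1%.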
